A study of Mus musculus with 3 samples.

Results

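The homeostatic lymphoid chemokines and the atypical receptors that scavenge them were followed gene by gene through single-cell transcriptomes of mouse Peyer's patch (PP), the lymphoid organ of the small intestine. The set was chosen by symbol and held 9 of the 31053 genes of the count tables: the chemokines *Ccl21a*, *Ccl19*, *Cxcl13*, *Cxcl12* and *Ccl20*, and the receptors *Ackr1*, *Ackr2*, *Ackr3* and *Ackr4*. All 3 libraries were used. The control library came from C57BL/6 mice labelled WT. EC-iCOUPOE replicates 1 and 2 came from the strain CDH5(PAC)CreERT2;COUP-TFIIOE/OE, in which tamoxifen activates a *Cdh5*-driven Cre and with it a COUP-TFII (*Nr2f2*) transgene in endothelial cells (EC), lymphatic as well as blood EC. Mice were 6 to 10 weeks old, and PP cells were sorted 14 to 19 days after tamoxifen. Male and female mice were pooled in a library, so a library is a pool rather than 1 animal. The study describes its controls as tamoxifen-treated Cre- and WT mice, which leaves unclear whether the WT mice received tamoxifen. Control and EC-iCOUPOE libraries differ in strain and in preparation as well as in COUP-TFII, and with 1 control library these cannot be told apart.

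CCL21 and CCL19 are the ligands of CCR7, the receptor with which naive T cells and dendritic cells enter T zones. CXCL13 draws CXCR5+ B cells into follicles, CXCL12 acts on CXCR4, and CCL20 draws CCR6+ cells. Unlike inflammatory chemokines, CCL21, CCL19, CXCL13 and CXCL12 are made constitutively by lymphoid stroma. CCL21 is also made by high endothelial cells (HEC) of the venules through which lymphocytes enter and by lymphatic vessels. The atypical receptors bind chemokines without driving migration. ACKR1 binds inflammatory chemokines on venules and carries them across the endothelium, ACKR2 takes up inflammatory CC chemokines, ACKR3 takes up CXCL12, and ACKR4 takes up CCL19, CCL21 and CCL20.

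The 9 genes lie on 5 chromosomes of mouse build GRCm38 (GENCODE vM21). *Ccl19* (chr4:42754525-42756577) and *Ccl21a* (chr4:42772860-42773993) lie close together on the minus strand. *Cxcl13* is at chr5:95956951-95961068, *Cxcl12* at chr6:117168535-117181367 and *Ccl20* at chr1:83116766-83119167, all on the plus strand. Of the receptors, *Ackr1* is at chr1:173331886-173333750 and *Ackr4* at chr9:104084157-104126933 on the minus strand, and *Ackr2* is at chr9:121898355-121911074 and *Ackr3* at chr1:90203980-90216751 on the plus strand.

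COUP-TFII binds the nuclear receptor core motif GGTCA. The motif was searched on both strands (GGTCA and TGACC) in the 250 bases upstream of each RefSeq start in mouse build GRCm38.p6, and 35.24% of all 32851 promoters held it. Of the 9 members, 4 held it (*Cxcl13*, *Ccl20*, *Ackr1* and *Ackr4*), and *Ccl21a*, *Ccl19*, *Cxcl12*, *Ackr2* and *Ackr3* did not. The sequences are shown for the 3 members with the most UMIs in blood EC. They lie at chr6:117168285-117168534 on the plus strand for *Cxcl12*, chr4:42773992-42774241 on the minus strand for *Ccl21a*, and chr1:173333504-173333753 on the minus strand for *Ackr1*. Each is given 5′ to 3′ up to the base before the start, with any copy of the motif in capitals. The copy upstream of the *Ackr1* RefSeq start begins at base -166 from it. GENCODE places the *Ackr1* start further upstream, so nearly all of this window, with the motif, lies inside the GENCODE gene span. The same holds for the whole *Ackr4* window and most of the *Ccl19* window. A match is a string of letters and was not tested as a binding site.
Cxcl12: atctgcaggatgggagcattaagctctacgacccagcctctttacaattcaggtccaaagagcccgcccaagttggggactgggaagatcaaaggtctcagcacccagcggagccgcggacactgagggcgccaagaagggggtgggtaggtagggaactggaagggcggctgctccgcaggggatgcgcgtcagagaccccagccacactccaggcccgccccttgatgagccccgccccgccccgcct
Ccl21a: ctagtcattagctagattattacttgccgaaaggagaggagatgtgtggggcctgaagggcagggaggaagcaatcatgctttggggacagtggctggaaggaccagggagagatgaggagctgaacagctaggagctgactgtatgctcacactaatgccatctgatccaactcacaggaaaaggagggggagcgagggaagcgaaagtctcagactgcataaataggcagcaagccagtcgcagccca
Ackr1: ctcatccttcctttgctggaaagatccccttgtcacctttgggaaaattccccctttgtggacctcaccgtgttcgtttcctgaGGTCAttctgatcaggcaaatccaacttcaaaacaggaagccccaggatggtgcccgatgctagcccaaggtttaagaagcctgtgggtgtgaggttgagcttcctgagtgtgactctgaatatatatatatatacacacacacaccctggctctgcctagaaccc

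The 3 tables held 6080, 4959 and 1441 barcodes and 17341398, 17417260 and 3548983 UMIs (unique molecular identifiers, the counted transcripts) for the control library and replicates 1 and 2. Low-quality barcodes were removed, which left 5473, 4750 and 1243 cells, and called doublets were taken from these, which left 5332, 4692 and 1239. Every sample is labelled blood EC, but the control library was not only that. Of its 5274 cells placed in a class, 2673 were fibroblasts or glia, against 11 fibroblasts in both EC-iCOUPOE libraries together, while 911 and 127 lymphatic endothelial cells were found in replicates 1 and 2 and 0 in the control library. Levels in fibroblasts therefore describe the control library, levels in lymphatic endothelium describe the EC-iCOUPOE libraries, and neither can be compared between genotypes. Blood EC numbered 2472, 3510 and 998. The members took no part in the clustering or in the naming of clusters. Genes that vary together with them could take part, so their levels by class are not independent of the classes. Names were given by fixed marker genes, and a name such as HEC stands for HEC-like cells. The class of pericytes and smooth muscle, with *Acta2* and *Myh11* among its leading genes, is called pericytes for short. The blood EC were HEC, postcapillary venule EC (PCV), capillary EC (CapEC), arterial EC, dividing EC and 4 clusters left unnamed, which are called by their leading genes: *Colec12* *Ltc4s* EC, *Cyp1a1* *Enpp6* EC, *Rgcc* *Tgtp2* EC and *Scgb3a1* *Prom1* EC. Levels are UMIs per 1000000 UMIs of the class (CPM) with exact 95% Poisson intervals, which cover counting error only.

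*Ccl21a* was made at a high level by fibroblastic reticular cells (FRC), lymphatic endothelium, HEC and the *Colec12* *Ltc4s* EC. FRC, here lymphoid stromal cells not resolved by zone, had *Ccl21a* at 38739 CPM (38493 to 38985). At least 10 UMIs were held by 82.0% of 682 cells. Lymphatic endothelium stood at 14646 CPM (14491 to 14803) in replicate 1 and 37764 CPM (37063 to 38474) in replicate 2, the second level close to that of FRC. HEC had 7833 CPM (7736 to 7931) in the control library, with at least 10 UMIs in 87.4% of 429 cells. The *Colec12* *Ltc4s* EC had 3509 CPM (3372 to 3650) there. The signal in this cluster was uneven, since 32.6% of the 184 cells held at least 10 UMIs and those cells carried 94.0% of the class's *Ccl21a*. FRC and HEC held 76.2% and 19.9% of the *Ccl21a* UMIs of the control library, whereas lymphatic endothelium held 50.3% in replicate 1 and 82.6% in replicate 2.

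Low *Ccl21a* values in other control classes were set against the level that free RNA would give if all of it came from FRC. If every UMI of *Dcn*, a fibroblast proteoglycan, found in CapEC had come with FRC RNA, *Ccl21a* there would be 98.1 CPM. The measured level was 93.2 CPM (74.6 to 115). The calculation is an upper estimate for fibroblast RNA. FRC held 36508 *Dcn* UMIs, but adventitial and lamina propria fibroblasts held 43334 and 33797, with *Ccl21a* at only 359 and 115 CPM. Glia, which should lack the gene, had 117 CPM (80.3 to 166). Arterial EC had 118 CPM (95.001 to 144). The levels in CapEC, arterial EC and glia did not differ beyond their intervals. The part of free RNA in them was not tested. PCV had 277 CPM (248 to 309), above the 71.3 CPM of the same calculation, but 4 of 391 cells carried 54.8% of it. The calculation gave 70.0 CPM for HEC and 70.6 CPM for the *Colec12* *Ltc4s* EC, far under their levels.

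*Ccl21a* reads can be shared with near-identical copies. Of 203 windows of 98 bases (the length of the transcript read) in the last 300 bases of the *Ccl21a* transcript, 74 were also found in *Gm13304* and in *Gm21541*. The copies drew few UMIs, 42, 0 and 97 for *Gm13304* and 0, 144 and 41 for *Gm21541* in the control library and replicates 1 and 2, and 13 for *Ccl21c* in replicate 1. The count of reads discarded because they matched several copies was not analysed here, so the split between *Ccl21a* and its copies is uncertain.

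**Figure D1:**
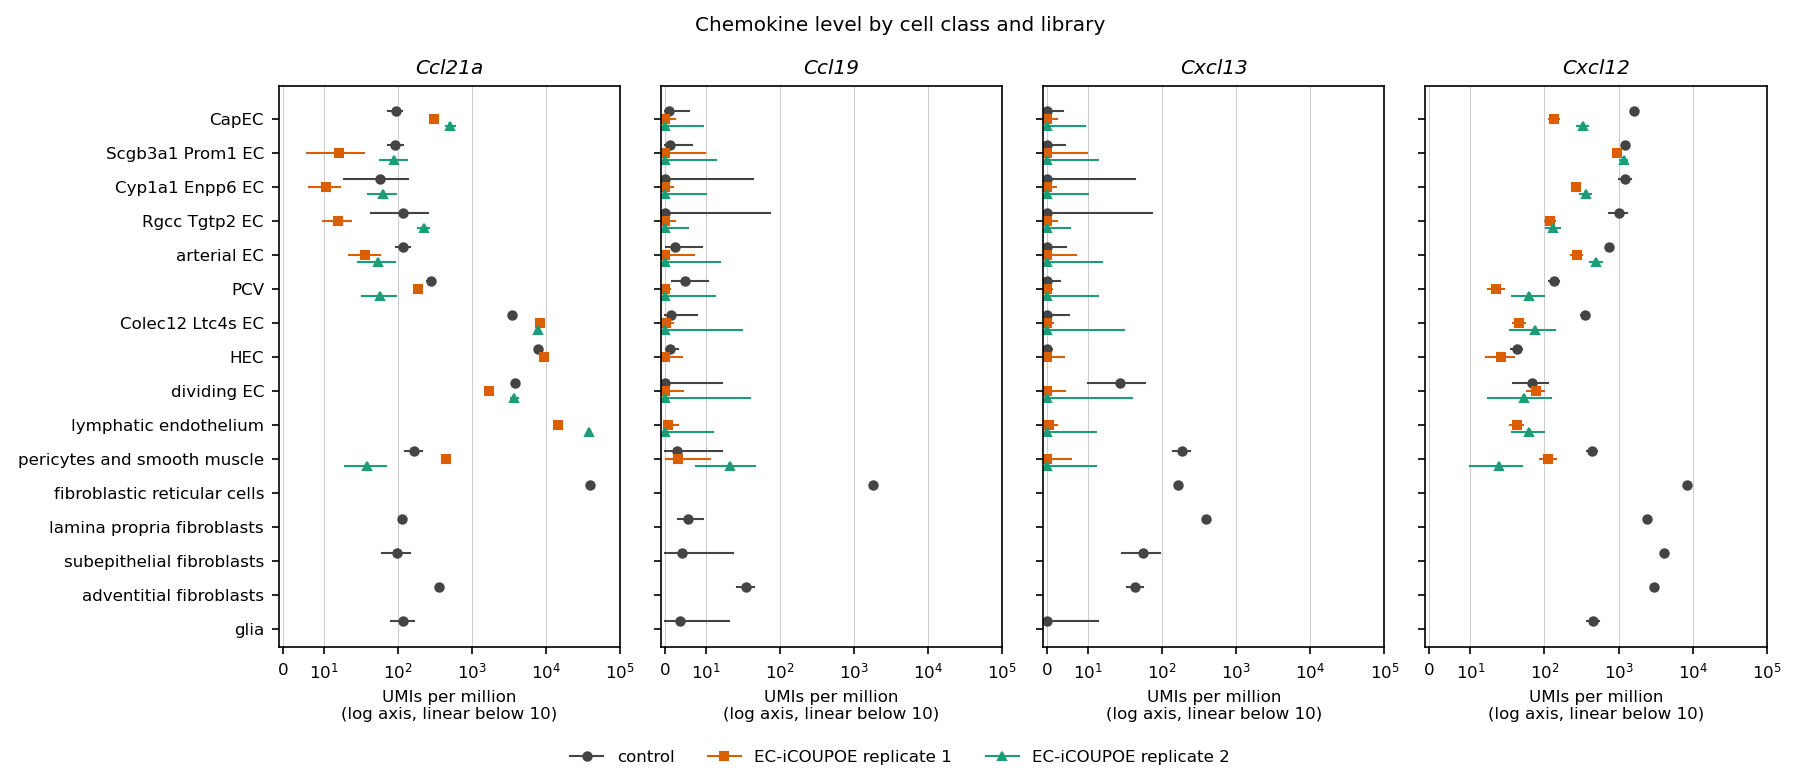
Levels of the chemokines by cell class and library, in CPM on a log axis, with exact 95% Poisson intervals as bars; classes with under 20 cells in a library are left out. *Ccl21a* is highest in FRC and lymphatic endothelium, *Ccl19* is highest in FRC, and *Cxcl12* is high in fibroblasts, at an intermediate level in CapEC, arterial EC and the *Scgb3a1* *Prom1* EC, and low in HEC.

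*Ccl19*, the other CCR7 ligand, was a product of FRC. FRC had 1783 CPM (1731 to 1837) and 97.95% of the control library's UMIs, and the next class, adventitial fibroblasts, had 34.2 CPM (26.0 to 44.3). HEC had 4 UMIs among 429 cells. To compare cells of unequal depth, each cell was thinned to 1000 UMIs, after which 51.2% of FRC held *Ccl19*. The CCR7 ligands were found in the same FRC: *Ccl21a* was present in 92.6% (89.3 to 95.1) of the 349 FRC with a *Ccl19* UMI and in 78.1% (73.2 to 82.4) of the 333 without, and its level was 45289 against 31290 CPM. These cells come from 1 library, so the split carries no test over samples. Replicates 1 and 2 held 10 and 6 *Ccl19* UMIs in all.

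*Cxcl13*, the B cell chemokine, was a product of fibroblasts and was nearly absent from EC. Lamina propria fibroblasts had 389 CPM (366 to 413) and 66.1% of the control library's UMIs, FRC had 164 CPM (149 to 181) and 24.6%, and subepithelial and adventitial fibroblasts had 54.5 (29.0 to 93.2) and 43.1 CPM (33.8 to 54.2). The last pair did not differ beyond counting error. All blood EC of the control library together held 6 UMIs, in 1 dividing cell. Within FRC the share of cells with *Cxcl13* did not follow *Ccl19*, with 6.88% (4.46 to 10.1) of *Ccl19*+ and 8.41% (5.66 to 11.9) of *Ccl19*- cells positive. The *Cxcl13* level was lower in *Ccl19*+ cells, at 104 against 233 CPM, again within 1 library. Pericytes and smooth muscle of the control library had 182 CPM (139 to 234). All 61 UMIs lay in 3 of 111 cells and 41 of them in 1 cell.

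*Cxcl12* was the widest spread of the chemokines. FRC had 8353 CPM (8239 to 8468), subepithelial fibroblasts 4073 (3820 to 4337), adventitial fibroblasts 2981 (2899 to 3064) and lamina propria fibroblasts 2426 (2369 to 2484). No neighbours in this order overlapped in their intervals. Among control blood EC the order was CapEC at 1617 CPM (1536 to 1701), *Cyp1a1* *Enpp6* EC at 1238 (1015 to 1496), *Scgb3a1* *Prom1* EC at 1225 (1151 to 1302), *Rgcc* *Tgtp2* EC at 1005 (748 to 1321), arterial EC at 742 (683 to 804), *Colec12* *Ltc4s* EC at 355 (312 to 402), PCV at 134 (114 to 156), dividing EC at 67.0 (37.5 to 111) and HEC at 42.1 (35.3 to 49.9). The capillary and arterial classes thus stood above PCV and HEC. The *Cyp1a1* *Enpp6*, *Scgb3a1* *Prom1* and *Rgcc* *Tgtp2* EC overlapped in their intervals, as did the *Rgcc* *Tgtp2* with arterial EC and dividing EC with HEC. Free FRC RNA, judged by *Dcn*, would have given 1.31% of the level in CapEC and 35.8% of that in HEC. After thinning, 69.9% of CapEC and 3.50% of HEC held a UMI. Lymphatic endothelium had 42.4 CPM (34.4 to 51.6) and 61.5 CPM (36.4 to 97.2) in replicates 1 and 2.

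*Ccl20* was close to the limit of detection, with 12, 7 and 3 UMIs in the control library and replicates 1 and 2. The 12 UMIs of the control library were all in 9 HEC (3.77 CPM, 1.95 to 6.59). The follicle-associated epithelium, a known source of CCL20 in PP, was not among the classes.

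Of the receptors, *Ackr1* marked the venous side. PCV of the control library had 2679 CPM (2588 to 2773), the *Colec12* *Ltc4s* EC 1102 (1026 to 1182), HEC 714 (685 to 744), dividing EC 411 (331 to 504) and the *Rgcc* *Tgtp2* EC 158 (68.0 to 311). CapEC, arterial EC and the *Scgb3a1* *Prom1* EC had 35.3, 23.8 and 5.93 CPM, and glia 11.0 CPM (2.27 to 32.2). Thinned to 1000 UMIs, 81.8% of PCV and 0.870% of CapEC held a UMI. Lymphatic endothelium had 5.62 CPM in replicate 1 and 2 UMIs in replicate 2. Within the control *Colec12* *Ltc4s* EC, cells with an *Ackr1* UMI had *Ccl21a* in 74.6% of cases and those without in 27.4%. The same split in replicate 1 gave 72.9% against 49.2%. The cells with *Ackr1* were also deeper in the control library, with a median of 4626 against 2604 UMIs, though all were thinned alike. Control HEC had 88.6% against 87.3% and control PCV 10.6% against 16.9%, each with overlapping intervals.

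*Ackr2* was mainly lymphatic. Lymphatic endothelium had 182 CPM (165 to 200) in replicate 1 and 99.1 CPM (66.4 to 142) in replicate 2, which was 83.5% and 93.5% of the *Ackr2* UMIs of those libraries. HEC came next with 42.8 CPM (35.9 to 50.6) in the control library and held 80.0% of its *Ackr2*. Dividing EC had 35.8 CPM (15.4 to 70.4) and the *Colec12* *Ltc4s* EC 24.1 CPM (14.1 to 38.6), both within the spread of counting around HEC. PCV had 3 UMIs. In replicate 1 HEC had 26.7 CPM (17.1 to 39.8). The CPM intervals overlapped with control, but the log2 ratio lay below 0 beyond counting error (-0.68, -1.37 to -0.04). Over all blood EC pooled *Ackr2* was lower in EC-iCOUPOE, at 20.4 CPM against 6.06 and 0.82 CPM. HEC, its main blood endothelial class, went from 429 of 2472 blood EC to 118 of 3510 and 5 of 998. The part of this shift in cell numbers in the pooled level was not tested.

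*Ackr3*, the scavenger of CXCL12, was found in most endothelium and was low in HEC, dividing EC and the *Colec12* *Ltc4s* EC. Lymphatic endothelium had 271 CPM (250 to 293) and 482 CPM (405 to 568) in replicates 1 and 2. In the control library the *Cyp1a1* *Enpp6* EC had 312 CPM (206 to 455), the *Rgcc* *Tgtp2* EC 256 (136 to 438), CapEC 198 (171 to 229), PCV 197 (173 to 224), the *Scgb3a1* *Prom1* EC 197 (168 to 229), pericytes 137 (101 to 183) and arterial EC 135 (111 to 163). The intervals of neighbours in this order overlapped. The *Colec12* *Ltc4s* EC had 35.5 CPM (23.0 to 52.4) and dividing EC 13.4 CPM (2.76 to 39.2). HEC had 6.92 CPM (4.34 to 10.5), which overlapped with dividing EC, and FRC had 2.84 CPM (1.14 to 5.85), so the class richest in *Cxcl12* had almost none of its scavenger. Lamina propria and adventitial fibroblasts had 45.0 (37.5 to 53.5) and 43.1 CPM (33.8 to 54.2). Glia held 0 UMIs, which allows up to 11.0 CPM.

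*Ackr4*, the scavenger of the CCR7 ligands, was foremost a fibroblast gene in the control library, where no lymphatic endothelium was found. Adventitial fibroblasts had 339 CPM (312 to 368) and 80.3% of the control library's UMIs, and 25.8% of the cells held a UMI after thinning. FRC had 39.7 CPM (32.2 to 48.4), and lymphatic endothelium of replicate 1 had 33.7 CPM (26.7 to 42.1) with 3 UMIs in replicate 2. The 15 lymphatic cells of replicate 1 with an *Ackr4* UMI had *Ccl21a* in 73.3% of cases, against 97.4% of the rest. No blood EC class of the control library reached 5 CPM.

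**Figure D2:**
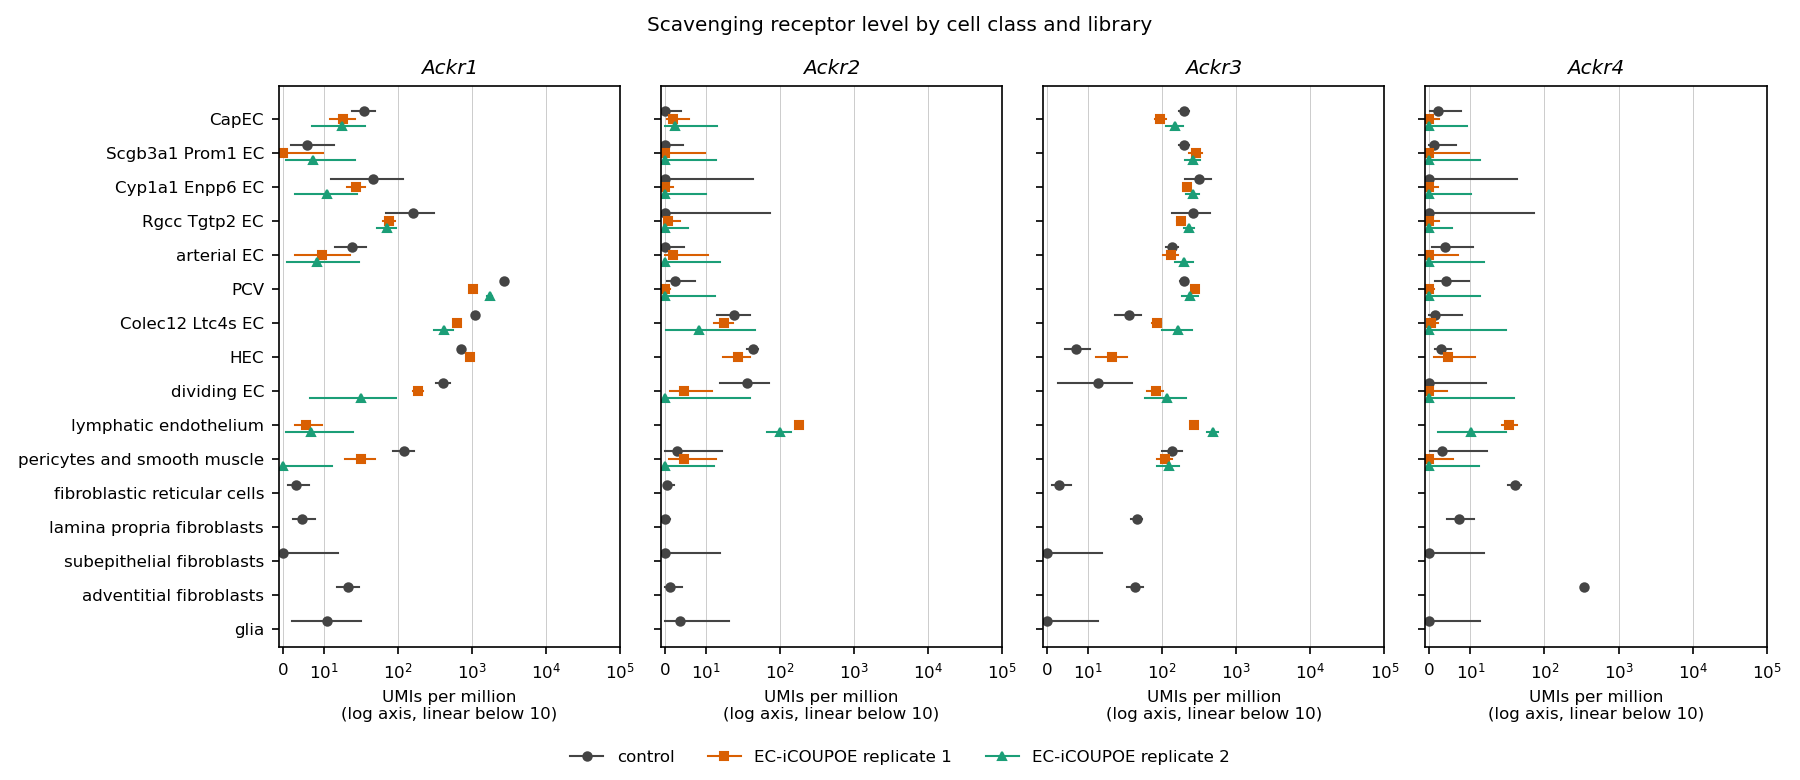
Levels of the receptors by cell class and library, in CPM on a log axis, with exact 95% Poisson intervals as bars; classes with under 20 cells in a library are left out. *Ackr1* peaks in PCV, *Ackr2* in lymphatic endothelium, *Ackr4* in adventitial fibroblasts, and *Ackr3* is spread over endothelium but low in HEC and FRC.

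The genes with the most similar pattern over the 17 classes, by Pearson's r of log2(CPM + 10), differed between the members. They were *Dnaaf3*, *Itih3* and *Slc16a9* for *Ccl21a* (r = 0.85, 0.83 and 0.80), *Nfasc* for *Ccl19* (0.98), *Dnm3os* for *Cxcl13* (0.99), *Rnaset2a* for *Cxcl12* (0.94), *Kcnh1* for *Ackr1* (0.96), *Stab2* for *Ackr2* (0.98), *Sp1* for *Ackr3* (0.93) and *Pcolce2* for *Ackr4* (0.95). No gene came as close to *Ccl21a* as to the others, and its high classes are of stromal, lymphatic and blood vessel kind. The classes share libraries and depth, and the coefficients only describe likeness.

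EC-iCOUPOE was then compared with control class by class. The overexpressed gene was higher in both EC-iCOUPOE libraries in each of the 8 blood EC classes compared: *Nr2f2* rose from 6.42 to 1566 and 854 CPM in CapEC and from 258 to 1915 and 1654 CPM in PCV. Pericytes and smooth muscle, which do not use the *Cdh5* promoter, also went from 299 to 1081 and 635 CPM. The control group is 1 library with no replicate, so the comparison rests on fold changes and not on a test. A member was called when both EC-iCOUPOE libraries lay at least 2-fold from control on the same side, among members with at least 50 UMIs in a library and classes with at least 20 cells in all 3. HEC had 5 cells in replicate 2 and were not compared. Over the 9 classes 31 pairs of member and class could be called, of which 4 were higher and 10 lower in EC-iCOUPOE. With the mean of per-cell CPM in place of the class total, 1 was higher and 10 were lower: *Ccl21a* in CapEC and *Ccl21a* and *Ackr3* in the *Colec12* *Ltc4s* EC were no longer called. Over all genes, on class totals and under the same filter, 8.21% of pairs were called, 5.31% higher and 2.9% lower. No share over all genes is given here for the per-cell means, so that count lacks a background. A pair could reach 50 UMIs only through the side where it was high. This was so for the calls of *Cxcl13* in pericytes, *Ccl21a* in arterial EC and *Ackr3* in the dividing and *Colec12* *Ltc4s* EC. For these pairs the filter itself favours a difference. By class, the members called were 2 of 3 in CapEC (6.97% of all genes), 3 of 4 in *Colec12* *Ltc4s* EC (5.76%), 1 of 2 in *Cyp1a1* *Enpp6* EC (15.3%), 1 of 4 in PCV (4.59%), 2 of 4 in *Rgcc* *Tgtp2* EC (14.9%), 0 of 3 in *Scgb3a1* *Prom1* EC (3.73%), 1 of 3 in arterial EC (5.07%), 2 of 4 in dividing EC (10.9%) and 2 of 4 in pericytes (5.21%). *Ccl19*, *Ccl20*, *Ackr2* and *Ackr4* had too few UMIs in the shared classes to be called anywhere.

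*Cxcl12* was lower in EC-iCOUPOE in 6 of 9 classes, which was most of the lower calls among the members. In CapEC it went from 1617 CPM in control to 135 CPM (117 to 155) and 331 CPM (277 to 392) in replicates 1 and 2, a fall of 11.98-fold and 4.89-fold (log2 ratio -2.94 ± 0.91, SD, n = 2). The share of thinned CapEC with a UMI went from 69.9% to 11.4% and 22.1%. Both libraries lay far under control, and they also differed from each other beyond counting error. The *Rgcc* *Tgtp2* EC went from 1005 to 120.05 and 130 CPM (-3.01 ± 0.08), the *Colec12* *Ltc4s* EC from 355 to 45.3 and 73.9 CPM (-2.62 ± 0.50), the *Cyp1a1* *Enpp6* EC from 1238 to 268 and 361 CPM (-1.99 ± 0.31) and PCV from 134 to 22.5 and 61.7 CPM (-1.84 ± 1.03). The control *Rgcc* *Tgtp2* EC and *Cyp1a1* *Enpp6* EC were few, 32 and 57 cells. In the larger PCV cluster taken alone, with 265, 473 and 80 cells, *Cxcl12* was not called (122 against 21.8 and 64.2 CPM).

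*Cxcl12* was not called in the other 3 classes. In the *Scgb3a1* *Prom1* EC, whose leading genes also include *Esm1* and *Unc5b*, it stood at 1225 CPM in control and 969 (873 to 1074) and 1175 CPM (1050 to 1311) in replicates 1 and 2 (-0.20 ± 0.20). The overexpressed gene was up in these cells too, from 3.56 to 1051 and 602 CPM of *Nr2f2*. After thinning, 97 of 195 and 47 of 147 of these cells held an *Nr2f2* UMI in replicates 1 and 2. In CapEC 381 of 534 and 89 of 181 did. Among cells with an *Nr2f2* UMI, *Cxcl12* stood at 742 and 1073 CPM in the *Scgb3a1* *Prom1* EC. In CapEC with an *Nr2f2* UMI it stood at 77.2 and 149 CPM. The part of *Nr2f2* in the difference between these classes was not tested. Arterial EC went from 742 to 272 and 496 CPM (-1.01 ± 0.61), with replicate 2 inside 2-fold. Taken alone, the arterial cluster with 148, 80 and 57 cells was called lower (989 against 285 and 482 CPM, -1.42 ± 0.53). Dividing EC had 67.0, 76.4 and 53.0 CPM. The *Scgb3a1* *Prom1* EC were the largest source of *Cxcl12* in replicate 2, with 37.3% of its UMIs, and held 19.5% in replicate 1. Over all blood EC pooled, whose makeup by class differed between the libraries, the level was 479.9, 125 and 335 CPM (-1.23 ± 1.01), and replicate 2 was within 2-fold of control.

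Within EC-iCOUPOE libraries, the share of cells with *Cxcl12* was also set out for cells with and without an *Nr2f2* UMI after thinning. In CapEC the shares were 7.87% (5.38 to 11.0) against 20.3% (14.2 to 27.5) in replicate 1 and 15.7% (8.88 to 25.0) against 28.3% (19.4 to 38.6) in replicate 2. The *Scgb3a1* *Prom1* EC had 38.1% against 57.1% and 51.1% against 57.0%, and arterial EC 19.2% against 33.8% and 22.9% against 37.8%. In the *Cyp1a1* *Enpp6* EC they were 21.9% against 22.3% and 19.0% against 29.8%. In the *Rgcc* *Tgtp2* EC the shares were 9.04% against 22.9% and 9.91% against 17.7%. The intervals were apart in CapEC and in the *Rgcc* *Tgtp2* EC of replicate 1 and overlapped in both classes of replicate 2. PCV, the *Colec12* *Ltc4s* EC and dividing EC also had the lower share with an *Nr2f2* UMI in both replicates, with overlapping intervals. In replicate 2 each of these shares rested on 2 or fewer positive cells. The CPM did not always follow: it was higher with an *Nr2f2* UMI in PCV (76.9 against 32.1) and the *Colec12* *Ltc4s* EC (97.8 against 25.0) of replicate 2. The same held for dividing EC of replicate 1 (78.6 against 71.5). In the other replicate of each class the CPM was lower. HEC of replicate 1 had the higher share with an *Nr2f2* UMI, with 1 of 44 cells against 0 of 74. Cells of 1 library are not replicates, and an absent UMI at this depth does not show that a cell lacked the transgene.

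**Figure D3:**
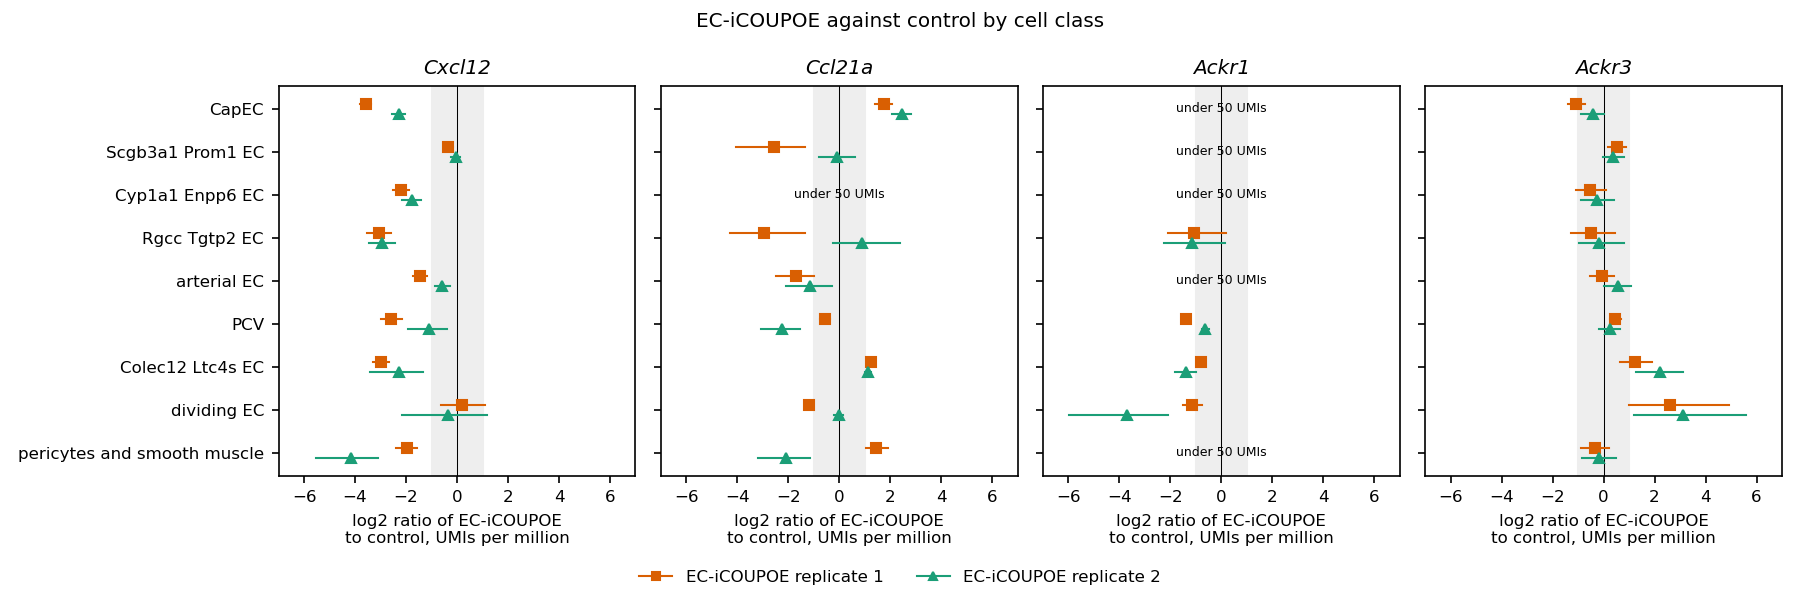
Log2 ratios of EC-iCOUPOE replicates 1 and 2 to control for the members in the classes compared, with exact 95% intervals for counting error and lines at the 2-fold limits. *Cxcl12* lies under the lower limit in both replicates in CapEC, PCV, pericytes and smooth muscle (1 class) and 3 unnamed EC clusters. It lies near 0 in the *Scgb3a1* *Prom1* EC.

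*Ccl21a* moved in opposite directions in different classes. In the *Colec12* *Ltc4s* EC it was higher, at 3509 CPM in control and 8218 (8110 to 8327) and 7731 CPM (7245 to 8241) in replicates 1 and 2 (1.18 ± 0.06). The spread over cells did not move alike in both libraries: at least 10 UMIs were found in 32.6% (25.9 to 39.9) of control cells, 55.0% (50.5 to 59.4) of replicate 1 and 19.4% (8.19 to 36.0) of replicate 2, where the class had 36 cells. Per such cell the median was 30, 67 and 93 UMIs. Without the single cell richest in *Ccl21a* in each library, the log2 ratio was 0.98 and the call was lost. The control cells with at least 10 UMIs also carried the HEC product *Glycam1* in 51 of 60 cells, against 12 of 274 in replicate 1 and 0 of 7 in replicate 2. Over the class *Glycam1* went from 5331 to 30.3 and 0 CPM, so the cells of this cluster differed between the genotypes in an HEC product too, and the part of this in the *Ccl21a* difference was not tested.

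In CapEC *Ccl21a* was also called higher, from 93.2 to 311 and 508 CPM (2.09 ± 0.50), but this rested on few cells. In replicate 1, 7 of 534 cells held 94.0% of the UMIs, and in replicate 2, 2 of 181 cells held 92.1%. No control CapEC held 10 UMIs. The CapEC were made of a pair of clusters that went opposite ways: the larger, with 439, 307 and 93 of the 575, 534 and 181 CapEC, was called lower (91.0 against 17.3 and 32.5 CPM, -1.94 ± 0.64), and the smaller was called higher (98.4 against 567 and 917 CPM, 2.87 ± 0.49). Of the 7 cells 4 also held *Mmrn1*, a lymphatic marker, but 0 held the lymphatic marker *Prox1* and all 7 held *Madcam1*. Of the 2 cells of replicate 2, 1 held *Mmrn1*, 1 held *Prox1* and 2 held *Madcam1*. Among the 784 lymphatic endothelial cells of replicate 1 with at least 10 *Ccl21a* UMIs, 509 held *Prox1* and 20 held *Madcam1*. The origin of these CapEC was not tested. The share of CapEC with any *Ccl21a* UMI was lower, 13.9% in control against 3.75% and 9.94%, and the control level was not above that of glia. Without the richest cell in each library the log2 ratio was 0.95 and the call was lost. Arterial EC were lower, 118 against 36.4 and 53.7 CPM (-1.41 ± 0.40), again from a control level near that of glia. PCV had 277, 186 and 58.0 CPM (-1.42 ± 1.19, not called). The larger PCV cluster taken alone was called lower (298 against 115 and 68.5 CPM, -1.74 ± 0.53). In HEC the level was 7833 CPM in control and 9369 CPM (9170 to 9571) in replicate 1, within 2-fold, while *Glycam1* there went from 74066 to 12385 CPM.

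**Figure D4:**
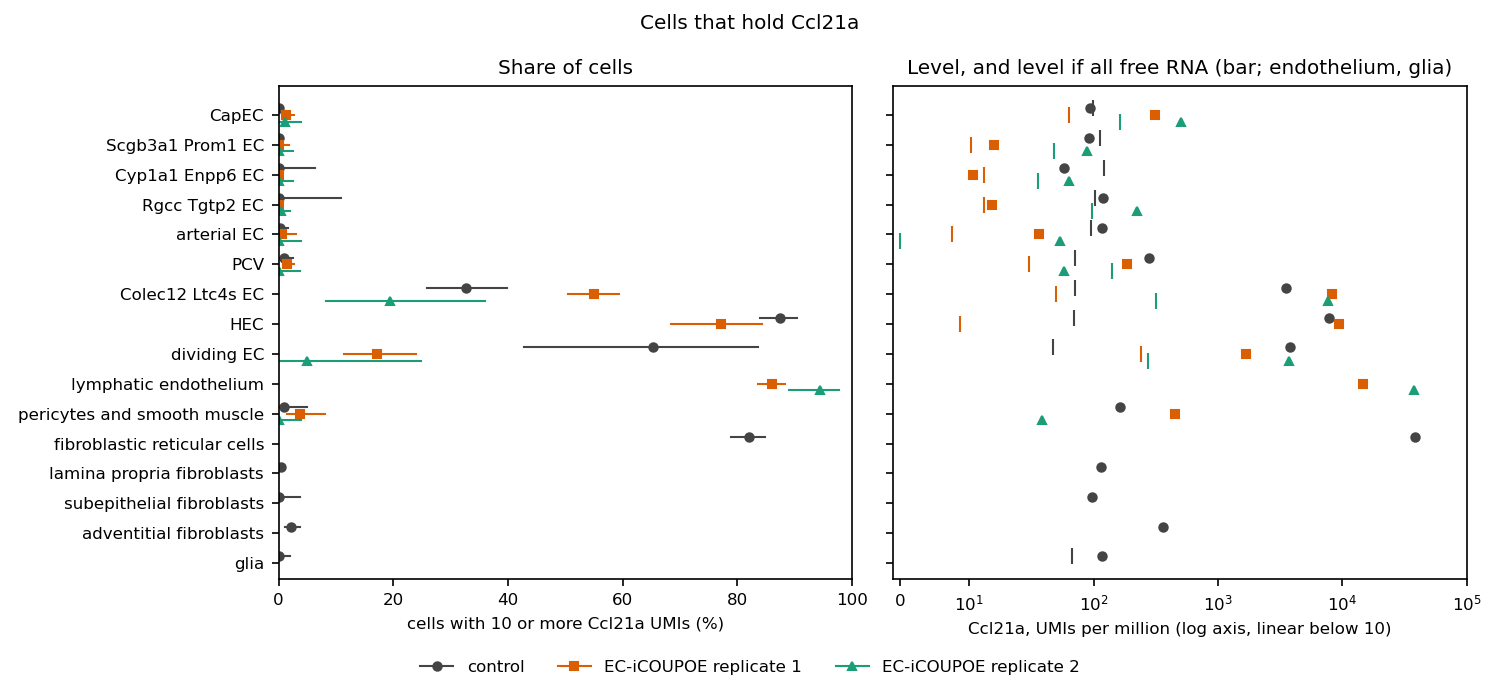
*Ccl21a* by class and library: the share of cells with at least 10 UMIs, with exact 95% binomial intervals, and the class level in CPM on a log axis. Bars beside it give the level that free RNA would give in endothelium and glia. Free RNA is taken as FRC RNA judged by *Dcn* in control and as lymphatic RNA judged by *Mmrn1* in EC-iCOUPOE. HEC and the *Colec12* *Ltc4s* EC stand far above the free RNA level. Control CapEC and arterial EC lie near the level that FRC RNA alone would give, which is an upper estimate for fibroblast RNA. *Ccl21a* is highest in FRC and lymphatic endothelium, the assumed sources.

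*Ackr1* was called lower in the *Rgcc* *Tgtp2* and dividing EC and was not called in PCV or the *Colec12* *Ltc4s* EC. In PCV it went from 2679 CPM in control to 1021 (986 to 1057) and 1727 CPM (1575 to 1889) in replicates 1 and 2 (-1.01 ± 0.54). Both libraries were below control, but replicate 2 stayed within 2-fold and no call was made. The *Colec12* *Ltc4s* EC had 1102, 633 and 419 CPM (-1.10 ± 0.42), with replicate 1 within 2-fold, whereas *Ackr1* in HEC was 714 CPM in control and 946 CPM (883 to 1012) in replicate 1. The calls were in the *Rgcc* *Tgtp2* EC, at 158, 75.4 and 70.9 CPM (-1.11 ± 0.06) with 8 control UMIs, and in dividing EC, at 411, 187 and 31.8 CPM (-2.42 ± 1.81) with 3 UMIs in replicate 2. The first of these turned to 1.62 when cells were clustered more coarsely.

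*Ackr3* was higher in the *Colec12* *Ltc4s* EC, at 35.5 CPM (23.0 to 52.4) in control and 83.8 (73.2 to 95.5) and 164 CPM (100.3 to 254) in replicates 1 and 2 (1.72 ± 0.69). The HEC product *Glycam1* was lower in this cluster (5331 against 30.3 and 0 CPM) and HEC are low in *Ackr3*; the part of HEC-like cells in this value was not tested. With per-cell means the log2 ratio was 1.56 and the call was lost. After thinning the shares of cells with an *Ackr3* UMI were 5.43%, 6.63% and 11.1%. Dividing EC had 13.4, 81.1 and 117 CPM (2.86 ± 0.37), from 3 control UMIs in 23 cells. Control dividing EC also carried more of the HEC product *Glycam1*, at 30854 CPM against 879.9 and 0, and HEC are the EC lowest in *Ackr3*. The part of HEC among the dividing cells was not tested. In the other classes compared *Ackr3* kept within 2-fold in at least 1 library. It had 198, 94.6 and 148 CPM in CapEC (-0.74 ± 0.45) and 197, 273 and 236 CPM in PCV (0.36 ± 0.15). HEC, which could not be compared in replicate 2, had 6.92 CPM in control and 21.2 CPM in replicate 1. The log2 ratio was 1.61 (0.65 to 2.57), from 22 and 19 UMIs.

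Pericytes and smooth muscle, a class which the transgene was not aimed at, differed as well. *Cxcl12* went from 442 CPM (374 to 519) to 113 (88.4 to 142) and 24.4 CPM (9.82 to 50.3), and *Cxcl13* from 61 UMIs to 0 and 0, at least 38.7-fold and 17.4-fold lower at a floor of 3 UMIs per library. *Dcn* moved with them, from 1153 to 17.3 and 27.9 CPM, and 32 of 148 *Cxcl12* UMIs and 41 of 61 *Cxcl13* UMIs of control pericytes were in 1 cell each. The control library was also the library with fibroblasts, and the part of fibroblast RNA in these values was not tested.

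The sexes were told apart by their sex-linked transcripts before doublet removal, giving 4233 female, 215 male and 1025 undecided control cells, and 1834, 1163 and 1753 in replicate 1 and 611, 212 and 420 in replicate 2. In female cells alone 4 of 17 pairs in 6 classes were called, 0 higher and 4 lower, and in male cells 2 of 6 pairs in 3 classes. The share of all genes called was not computed within these subsets, and the 8.21% of all cells does not apply to them. The counts by sex therefore lack a background to be read against. *Cxcl12* in CapEC was lower in each of 11 alternative settings that gave a call.

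Other genes of the chemokine system were read from lists, whose counts stand against 5.31% of pairs called higher and 2.9% lower over all genes. Of the receptors through which the ligands signal, *Cxcr4* alone had enough UMIs, in 2 classes, and was not called. In CapEC it stood at 77.1 CPM (60.3 to 97.1) in control and 15.4 and 55.1 CPM in replicates 1 and 2. Of the 2 further scavenging receptors, *Gpr182* was lower in the *Colec12* *Ltc4s* EC, from 115 to 19.1 and 16.4 CPM, and this was 1 call among 12 pairs. Among other constitutive chemokines 3 of 6 pairs were higher, all of them *Cxcl16*, a membrane-bound ligand of CXCR6: 19.3 to 64.4 and 60.1 CPM in CapEC, 24.1 to 49.4 and 49.2 CPM in the *Colec12* *Ltc4s* EC and 13.4 to 63.4 and 74.2 CPM in dividing EC. Heparan sulfate genes, whose product holds chemokines on the endothelial surface, were higher in 3 of 31 pairs. Among them was the sulfotransferase *Hs3st1* in the *Colec12* *Ltc4s* EC (49.7 to 159 and 107 CPM). This *Hs3st1* pair and the *Cxcl16* pairs called reached 50 UMIs only in EC-iCOUPOE replicate 1. For them the filter itself favours a higher call, so their counts are not a fair match to the share over all genes. Of 8 pairs of cleavage and adaptor genes 1 was higher (*Arrb1* in the *Rgcc* *Tgtp2* EC). The lymphotoxin and noncanonical NF-κB genes, which act upstream of homeostatic chemokines in stroma, had 2 higher and 2 lower of 27 pairs (8.21% of all pairs were called either way), with *Ltbr* and *Relb* each called in opposite directions in the *Cyp1a1* *Enpp6* and *Rgcc* *Tgtp2* EC, where control UMIs were 11 or fewer.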

How the data were processed

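PP cells of 3 libraries (1 control, 2 EC-iCOUPOE) were captured on a 10x Genomics platform, and the authors deposited raw UMI counts per gene and barcode, made with Cell Ranger (3.0.2 in the submitters' processing notes) against mm10. The table of replicate 1 names Cell Ranger 3.1.0 in its header, and 12 barcodes were shared between the control library and replicate 2. The labels name both v2 and v3 chemistry. The symbols *Ccl21a* and *Ccl19* occur at 2 identifiers each, of which those on chromosome 4 were used. The study describes male and female cohorts from independent experiments, but which animals entered which library is not given, so part of the spread between libraries may be technical.

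The members and gene lists were chosen with earlier results of these data known. The named genes were all 9 members, the genes of 6 pathway lists and, per member with at least 100 UMIs, the 3 genes of most similar class pattern. Barcodes with low counts or high mitochondrial share and scanpy 1.11.5 Scrublet doublets (141, 58 and 4) were removed. Cells were clustered with Seurat 5.3.0 (2000 variable genes, resolution 1) without members, their copies, pathway genes, *Nr2f2*, *Madcam1* and sex-linked genes. Clusters were named by fixed markers, and 58, 81 and 12 cells of mixed type were left out. Counts were summed per class and library, with exact Poisson, Clopper-Pearson or conditional binomial 95% intervals (SciPy 1.17.1). A gene needed 50 UMIs in a library, a class 20 cells in each library, and a call at least a 2-fold ratio to control in both EC-iCOUPOE libraries on 1 side. A count of 0 entered at 3 UMIs. In simulated counts the rule recovered 97.6%, 95.4% and 92.0% of 4-fold changes in CapEC, *Colec12* *Ltc4s* EC and PCV and called 1.50%, 2.49% and 1.87% of unchanged genes. The simulation drew class totals, not single cells, at an assumed dispersion of 0.05 that was not estimated from these libraries. The classes with few control cells were not simulated. These shares therefore do not describe calls in such classes or calls that rest on few cells. edgeR 4.0.16 (R 4.3.3) was run as an alternative, with its spread taken from the EC-iCOUPOE libraries alone, along with other scalings, filters, resolutions and subsets of cells and libraries.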

Additional observations from a re-analysis of the deposited data

Results flagged for a closer look

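*Ccl21a* differed from control in opposite directions in different EC classes. Both EC-iCOUPOE libraries were higher in CapEC (log2 ratio 2.09) and in the *Colec12* *Ltc4s* EC (1.18), and both were lower in arterial EC (-1.41). The difference between the classes was not tested. Within CapEC the larger cluster was lower in both libraries (-2.39 and -1.48) and the smaller was higher (2.53 and 3.22). In CapEC and arterial EC the control levels lay near that of glia, and 9 cells of the EC-iCOUPOE libraries carried over 90% of the CapEC value.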

How the results depend on the processing

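The 14 calls among the members became 4 in female cells alone and 2 in male cells alone. By edgeR's quasi-likelihood test with Benjamini-Hochberg adjustment there were 3 (14 at an unadjusted p under 0.05). Pooling all blood EC, an alternative chosen after seeing the data, gave 1 call, *Ackr2*, which is not among the 14. *Cxcl12*, *Ccl21a*, *Ackr1* and *Ackr3* were not called in the pool. With per-cell means there were 11 calls, of which 1 was higher, against 4 higher of 14. They ranged from 14 to 20 when an EC-iCOUPOE replicate was left out. The 8.21% of pairs called over all genes belongs to the main setting. It does not apply to these member counts, which are given without a share over all genes. The 3 calls of edgeR were *Cxcl12* in CapEC (adjusted p = 0.0227) and in the *Colec12* *Ltc4s* EC (adjusted p = 6.55e-05) and *Ccl21a* in CapEC (adjusted p = 0.049). The control arm is 1 library, assumed in this test to vary like the EC-iCOUPOE libraries, so these p-values do not replace a replicated comparison. The 3055 calls over all genes became 1546 in cells with 2000 UMIs or more, 1133 in female and 489 in male cells, 6630 and 7439 with genes down to 10 UMIs and 1 UMI, and 279 by edgeR (3029 unadjusted), and ranged from 3042 to 6623 when an EC-iCOUPOE replicate was left out, with more calls without replicate 2. Fewer cells and classes entered the sex and depth subsets. *Ackr1* in the *Rgcc* *Tgtp2* EC turned from -1.11 to 1.62 at resolution 0.6, and the cause was not tested. *Cxcl12* in CapEC was called in all 11 alternatives that gave a call, from -3.58 to -2.29. *Cxcl12* in PCV was not called with TMM scaling or with doublets kept. *Ccl21a* in CapEC lost its call with per-cell means, in each sex alone and without its richest cell, *Ccl21a* in the *Colec12* *Ltc4s* EC with per-cell means and without its richest cell, *Ackr3* there with per-cell means, and *Ccl21a* in arterial EC with TMM scaling, with doublets kept, in cells of 2000 UMIs or more and in female cells. Depth limits *Ccl20*, *Ackr2* and *Ackr4*. No paired analysis was possible because the control and EC-iCOUPOE groups share fewer than 2 replicate numbers.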

Other observations

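Other constitutive chemokines and scavengers had their own sources. *Cxcl14* was made by subepithelial fibroblasts (952 CPM, 832 to 1084) and lamina propria fibroblasts (352 CPM, 330 to 374) and was at 16.6 CPM in FRC. *Cxcl16* stood at 352 CPM in lamina propria fibroblasts, 209.7 CPM in subepithelial fibroblasts and 128 CPM in FRC. Of the scavengers outside the ACKR family, *Gpr182* stood at 328 CPM (266 to 401) and 150.5 CPM (135 to 167) in lymphatic endothelium of EC-iCOUPOE replicates 2 and 1. In control HEC it stood at 166 CPM (152 to 181). *Ccrl2* stood at 191 CPM (147 to 244) in control pericytes and smooth muscle. The *Ccl21a* copies *Gm13304* and *Gm21541* were read mainly in lymphatic endothelium: *Gm13304* at 325 CPM (263 to 397) in replicate 2 and at 0 UMIs in replicate 1, *Gm21541* at 123 CPM (86.1 to 170.3) and 59.2 CPM (49.7 to 70.0) in replicates 2 and 1.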
